A study of Mus musculus with 9 samples.

Results

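The genes described here build, move and control the actin cytoskeleton, together with serum response factor (SRF) and the genes it is known to switch on. A list of 41 symbols was given, and all 41 were found by gene name among the 55416 deposited genes. Of these, 39 passed the filter on low counts and are among the 13679 genes tested. The other 2, Cnn1 and Myh11, had almost no reads. The list was not chosen on a measured value, but it was drawn up with earlier results of these data known.

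MC3T3-E1 is a wild-type mouse line of pre-osteoblasts from calvarial bone, and the study used subclone 4, so all libraries come from 1 clone. All cells had been brought towards the osteocyte in medium with 10 mM β-glycerophosphate (BGP), 50 µg/ml ascorbic acid and 0.1 µM dexamethasone. At day 27 they received 4 mM BGP, an organic phosphate, or 4 mM of a Na2HPO4 and NaH2PO4 mixture (NaHPO4), an inorganic phosphate, for 16 h, and Control cells received neither. The study names inorganic sodium phosphate in the base medium of every condition, so Control cells were not free of it. Polyadenylated RNA was sequenced from 3 libraries per condition, 9 in all. The labels have the cells in medium with BGP until the treatment, whereas the study's methods have BGP taken out of it some days before, so the phosphate that Control cells had seen is not certain. Nothing states that the 3 libraries of a condition came from separate cultures, so p-values measure the spread between these libraries, which may be technical.

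Actin monomers join into filaments, and non-muscle or smooth muscle myosin pulls on those filaments when its regulatory light chain is phosphorylated. Free actin monomers hold the coactivators MRTF-A and MRTF-B in the cytoplasm. When monomers are used up, MRTF enters the nucleus and works with SRF at a DNA element called the CArG box, which lies before many actin, myosin and adhesion genes. In bone cells the same filaments link the cell to its matrix and carry mechanical signals, and osteocytes hold their long processes open with them.

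The bases just before the transcription start are shown for some of the members that held a CArG box or a near match there. Acta2, Actg1 and Myl9 had the lowest log2FC with NaHPO4, Cnn2 and Srf also fell, and Fhl1 was the single member that rose. Csrp1 (log2FC = -0.29), Mylk (-0.23) and Zyx (-0.22) also fell but held neither, and they are not shown. Capitals mark a CArG box (CC, then 6 bases that are each A or T, then GG) or a match to it with 1 other base among the 6. Sequences come from RefSeq on GRCm38.p6, read 5′ to 3′ on the strand of the gene, and end at the base before the start.
Acta2 (chr19:34255374-34255553, minus strand): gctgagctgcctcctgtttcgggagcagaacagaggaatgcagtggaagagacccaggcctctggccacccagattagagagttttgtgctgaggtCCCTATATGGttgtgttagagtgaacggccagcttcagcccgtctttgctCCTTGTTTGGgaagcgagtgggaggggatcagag
Actg1 (chr11:120348496-120348675, minus strand): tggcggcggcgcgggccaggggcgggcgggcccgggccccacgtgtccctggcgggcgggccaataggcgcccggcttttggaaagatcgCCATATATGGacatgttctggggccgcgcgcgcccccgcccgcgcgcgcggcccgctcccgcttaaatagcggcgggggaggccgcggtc
Myl9 (chr2:156775284-156775463, plus strand): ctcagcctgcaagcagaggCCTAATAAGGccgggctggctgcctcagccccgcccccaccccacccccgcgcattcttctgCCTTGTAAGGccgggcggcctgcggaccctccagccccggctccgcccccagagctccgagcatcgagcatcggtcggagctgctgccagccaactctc
Cnn2 (chr10:79988420-79988599, plus strand): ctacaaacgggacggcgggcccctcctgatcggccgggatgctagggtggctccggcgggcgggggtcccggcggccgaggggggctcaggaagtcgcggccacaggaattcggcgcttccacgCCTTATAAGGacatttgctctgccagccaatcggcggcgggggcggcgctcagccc
Srf (chr17:46556163-46556342, minus strand): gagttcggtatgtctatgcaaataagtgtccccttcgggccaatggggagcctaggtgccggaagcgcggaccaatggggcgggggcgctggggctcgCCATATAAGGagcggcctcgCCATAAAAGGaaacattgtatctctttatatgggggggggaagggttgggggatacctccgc
Fhl1 (chrX:56779503-56779682, plus strand): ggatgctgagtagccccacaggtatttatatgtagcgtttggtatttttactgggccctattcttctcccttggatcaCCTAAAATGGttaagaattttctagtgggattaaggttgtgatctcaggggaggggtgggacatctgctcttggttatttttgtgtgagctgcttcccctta
Actg1, Cnn2 and Fhl1 each held 1 CArG box, beginning 90, 56 and 102 bases before the start. Fhl1 has another listed start whose bases held no match, and which start these cells used was not tested. Srf itself held 2, beginning 82 and 62 bases before the start, and Myl9 held 1 at 161 bases and a match with 1 other base at 99. Acta2 held no full CArG box here, only matches with 1 other base, at 84 and 34 bases. A match is a description of letters and does not show that SRF sits there in these cells.

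Total counts ran from 21390839 to 28234404 per library. The 41 members together took 1.47% to 1.51% of all counts in the Control libraries, 1.52% to 1.53% in the BGP libraries and 1.37% to 1.40% in the NaHPO4 libraries, and these shares do not overlap. They do not depend on how the libraries were scaled. Levels below are CPM, which are read counts relative to the TMM-scaled library size, and log2FC is the log2 fold change fitted by edgeR. A gene is said to rise or fall if its adjusted p was below 0.05 over all 13679 genes, and is called a DEG if the absolute log2FC was also above 0.5. In these bulk libraries, fewer cells of a type and less RNA per cell cannot be told apart.

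With NaHPO4, 16 of the 39 tested members fell and 1 rose compared to Control. Over all tested genes, 3.95% fell and 3.43% rose. A single member, Myl9, was a DEG, beside 0.716% of all genes. The median log2FC was -0.07 over the members and 0.00 over all tested genes. The members are well-expressed genes with a median standard error of 0.037 on the log2 scale, against 0.069 over all genes, so smaller changes pass the test in them. Among the 7974 tested genes with a mean of at least 16.8 CPM, the level of the lowest tested member, 5.82% fell and 4.95% rose. Their median standard error was 0.050, still above that of the members. Libraries scaled by total counts alone gave 777 higher and 413 lower genes in place of 469 higher and 540 lower, while the members stood at 1 higher and 16 lower under either scaling.

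With BGP, 5 members rose and 0 fell compared to Control. Over all tested genes, 1.86% rose and 0.665% fell, and over those at least as abundant as the lowest tested member, 2.55% and 0.991%. At an unadjusted p below 0.05 there were 15 members in either direction, beside 13.4% of all tested genes. DESeq2 called 4 members, all higher, beside 2.21% of the 13679 genes in either direction (233 higher and 69 lower). None of the 5 was a DEG, beside 0.556% of all genes, and the largest log2FC was 0.33, for Actg2. The count rests on few libraries, since leaving out Control replicate 1, 2 or 3 left 2, 3 or 1 of the calls, and leaving out BGP replicate 1, 2 or 3 left 3, 1 or 2. Actg2 was the only call that none of these removed. The share called among all tested genes dropped too, from 2.53% to 1.57%, 1.71% or 1.98% without Control replicate 1, 2 or 3. Without BGP replicate 1, 2 or 3 that share was 1.45%, 1.59% or 1.97%.

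Between the treated groups, 19 members were higher with BGP than with NaHPO4 and 1 was lower. Over all tested genes, 3.33% were higher and 2.05% lower, and over those at least as abundant as the lowest tested member, 5.09% and 2.65%. Acta2 and Myl9 were DEGs, beside 0.585% of all genes, and the median log2FC of the members was 0.10. Total counts alone gave 322 higher and 494 lower genes in place of 456 and 280, with 17 members higher and 1 lower. This comparison uses the same NaHPO4 libraries as the comparison with Control, and both comparisons with Control share the Control libraries, so the 3 results are not independent.

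**Figure D1:**
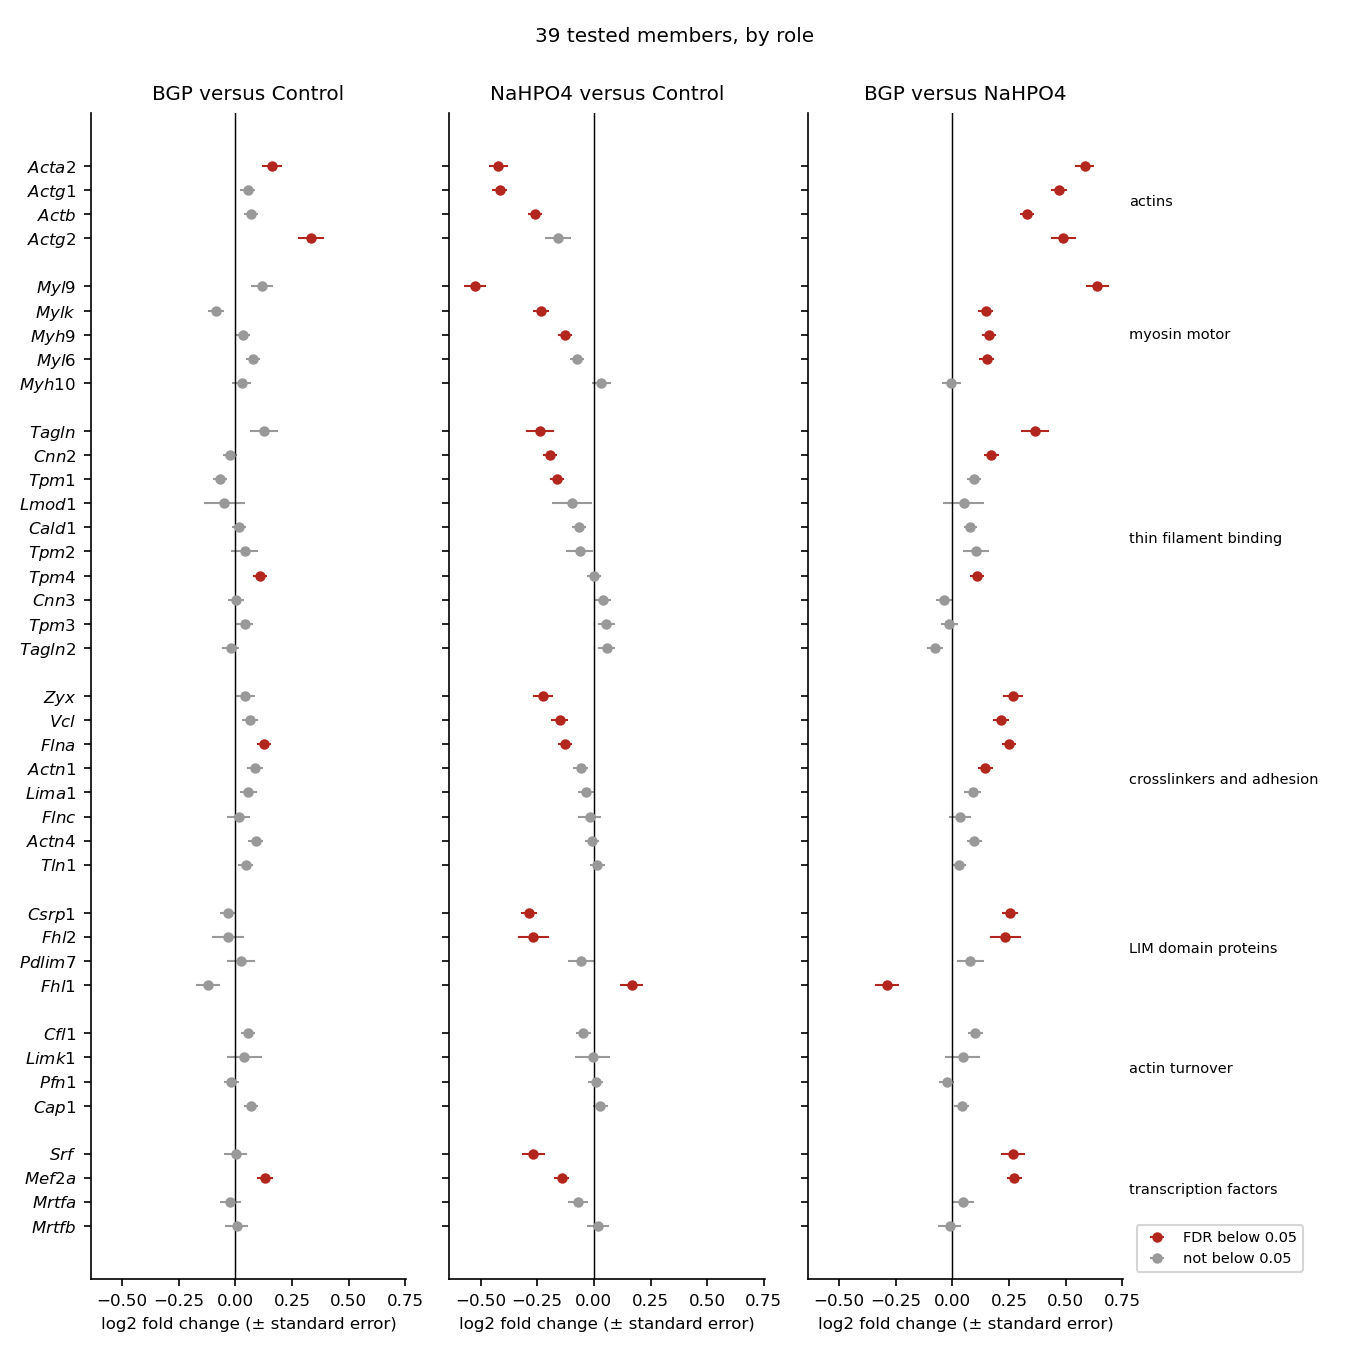
Fitted log2 fold change (x axis, error bars ± standard error) of the 39 tested members, grouped by role, in the 3 comparisons, red where the adjusted p was below 0.05. With NaHPO4 (middle) 16 red points lie below 0 and 1, Fhl1, above it, while with BGP (left) 5 red points lie above 0 and the largest is Actg2 at 0.33.

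Actins are the subunits of the filament. Summed over the 4 actin genes, the level was 3030 ± 40.8 CPM in Control libraries, 3219 ± 82.0 CPM after BGP and 2462 ± 71.9 CPM after NaHPO4 (SD, n = 3), so that NaHPO4 libraries stood at 81.3% of the Control mean. All 3 NaHPO4 libraries lay below every Control library, and all 3 BGP libraries lay above. Per kilobase of exon, Actb was by far the most abundant in Control with 739.5 CPM per kb, followed by Acta2 with 137, Actg1 with 123 and Actg2 with 26.8.

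Acta2 (ENSMUSG00000035783, GRCm39 chr19:34217737-34232990, minus strand) encodes the smooth muscle α-actin that also marks contractile fibroblasts and osteoprogenitors. It had 451, 455 and 415 CPM in Control libraries, 477, 508 and 493 CPM after BGP and 303, 361 and 323 CPM after NaHPO4. The 3 conditions do not overlap. It fell by 25.4% with NaHPO4 (log2FC = -0.42, SE 0.04, adjusted p = 5.7e-09), with a 95% interval of -29.8% to -20.7%, and rose by 11.8% with BGP (log2FC = 0.16, SE 0.04, adjusted p = 0.0315). The rise with BGP was lost without Control replicate 3 (adjusted p = 0.211), BGP replicate 2 (0.189) or BGP replicate 3 (0.0772), and in DESeq2 (0.349). BGP and NaHPO4 differed by a log2FC of 0.58 (adjusted p = 4.29e-12). An exon of Stambpl1 overlaps an Acta2 exon on the other strand, and whether strand was used in counting is not given in the sources used here, so reads from the overlap cannot be told apart.

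Actb and Actg1 encode the β- and γ-actins present in every cell. Actb (chr5:142888870-142892509, minus strand, GRCm39) had 2189, 2135 and 2161 CPM in Control libraries, 2308, 2177 and 2322 CPM after BGP and 1777, 1835 and 1801 CPM after NaHPO4. Its NaHPO4 libraries lie close together and well below the other 6, and it fell by 16.5% (log2FC = -0.26, SE 0.03, adjusted p = 1.07e-07). With BGP the log2FC was 0.07 (adjusted p = 0.288). Actg1 (chr11:120236512-120239617, minus strand, GRCm39) had 377, 362 and 367 CPM in Control libraries, 387, 369 and 391 CPM after BGP and 268, 283 and 277 CPM after NaHPO4. The gap was wider here. Actg1 fell by 25.1% (log2FC = -0.42, SE 0.03, adjusted p = 2.53e-11), and BGP did not pass the test (log2FC = 0.05, adjusted p = 0.528). The ratio of Actg1 to Actb counts, which no scaling of the libraries can move, was 0.170 to 0.172 in Control, 0.168 to 0.169 with BGP and 0.151 to 0.154 with NaHPO4. The NaHPO4 ratios lie below the other 6 with no overlap, and the ratio itself was not tested. The ratio of Acta2 to Actb counts was 0.192 to 0.213 in Control, 0.207 to 0.233 with BGP and 0.170 to 0.197 with NaHPO4, with overlap. For Actg1, 50.6% of the 50-base stretches of its transcripts also occur in other genes, pseudogenes among them, against 7.24% for Actb, and reads may have been split among them. Exons of Actg1 also overlap those of Gm55891 and Mir6935 on the same strand and of 0610009L18Rik on the other. Both actins are common reference genes for qPCR.

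Actg2 (chr6:83489887-83513551, minus strand, GRCm39) encodes the γ-actin of visceral smooth muscle. It had 59.3, 62.8 and 56.1 CPM in Control libraries, 79.8, 71.7 and 72.8 CPM after BGP and 48.2, 59.3 and 52.1 CPM after NaHPO4. The BGP libraries are the highest 3 of 9, and NaHPO4 replicate 2 lies inside the Control range. Actg2 rose by 26% with BGP (log2FC = 0.33, SE 0.06, adjusted p = 0.000214), and this was the member with the smallest adjusted p in that comparison. With NaHPO4 its log2FC of -0.16 did not pass the test (adjusted p = 0.0977), but did without NaHPO4 replicate 2 (0.00662). The treated groups differed (log2FC = 0.49, SE 0.06, adjusted p = 1.26e-07).

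**Figure D2:**
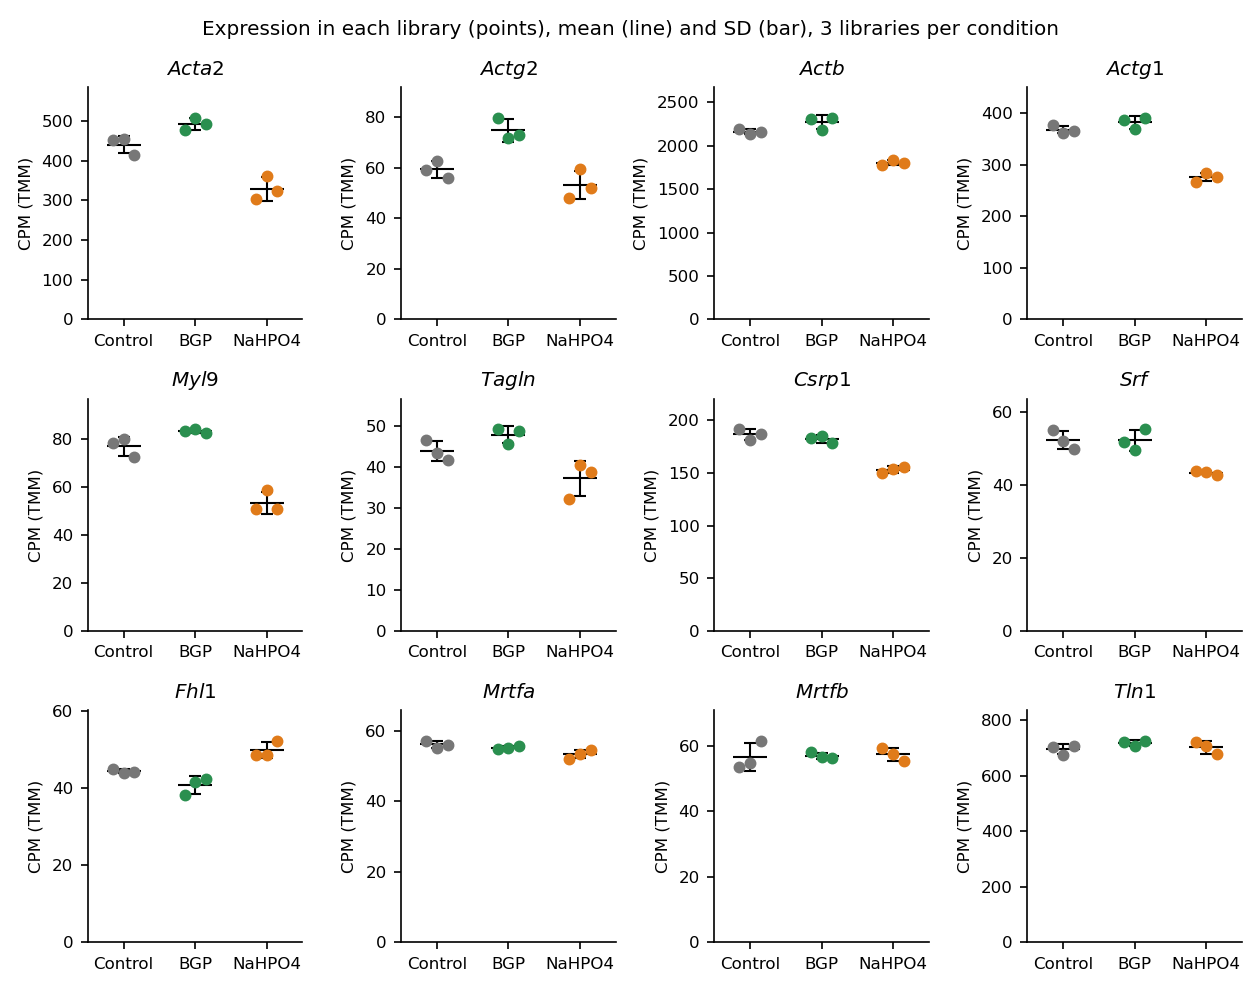
CPM after TMM scaling (y axis from 0) of 12 members in each library, by condition, with the mean as a line and the SD as a bar (n = 3 per condition). The NaHPO4 points of Acta2, Actb, Actg1, Myl9, Csrp1 and Srf lie below all Control points, those of Fhl1 lie above, those of Mrtfb lie among them, and those of Tln1 overlap with them.

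Myosin II is a motor of heavy chains with essential and regulatory light chains, switched on by a kinase. Of its 5 tested genes, 3 fell with NaHPO4 and 4 were higher with BGP than NaHPO4, beside 3.95% and 3.33% of all tested genes. With BGP compared to Control, 0 passed in edgeR or DESeq2, and 3 had an unadjusted p below 0.05, as did 13.4% of all tested genes. Myl9 (chr2:156617084-156623579, plus strand, GRCm39) encodes a regulatory light chain, the subunit that the kinase phosphorylates. It had 78.5, 80.2 and 72.5 CPM in Control libraries, 83.3, 84.2 and 82.7 CPM after BGP and 50.9, 58.7 and 50.8 CPM after NaHPO4. NaHPO4 libraries lie far below the other 6, with no overlap. Myl9 fell by 30.5% with NaHPO4 (log2FC = -0.52, SE 0.05, adjusted p = 1e-09), with a 95% interval of -35.2% to -25.4%, and no other member had a lower log2FC. The log2FC with BGP was 0.12 (adjusted p = 0.267), and the treated groups differed by 0.64 (adjusted p = 1.14e-11). An exon of 5730471H19Rik overlaps on the other strand.

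Myl6 encodes the essential light chain, which is not the switch. It had 450.0, 446 and 430.4 CPM in Control libraries, 463, 461 and 474 CPM after BGP and 409.5, 429 and 421 CPM after NaHPO4. NaHPO4 libraries were a little below Control and BGP libraries a little above, and only the treated groups differed (log2FC = 0.15, SE 0.03, adjusted p = 0.00197). The ratio of Myl9 to Myl6 counts was 0.169 to 0.180 in Control, 0.175 to 0.183 with BGP and 0.121 to 0.137 with NaHPO4, where all 3 libraries lie below the other 6. All count ratios given here were chosen after their values had been seen. Mylk, the myosin light chain kinase, had 646, 652 and 626 CPM in Control libraries, 602, 609.9 and 598 CPM after BGP and 581, 539.6 and 515 CPM after NaHPO4. Its NaHPO4 libraries were the lowest and its BGP libraries lay between. It fell with NaHPO4 (log2FC = -0.23, SE 0.03, adjusted p = 1.02e-05). BGP exceeded NaHPO4 (log2FC = 0.15, adjusted p = 0.00707), a call lost without NaHPO4 replicate 3 (0.0920).

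The heavy chains form the motor itself. Myh9, the heavy chain of non-muscle myosin IIA, had 798, 799 and 807 CPM in Control libraries, 821, 804 and 835 CPM after BGP and 748, 733 and 718 CPM after NaHPO4. Every NaHPO4 library lay below every other library, and Myh9 fell by 8.52% (log2FC = -0.13, SE 0.03, adjusted p = 0.00489). The treated groups differed as well (log2FC = 0.16, adjusted p = 0.000466, BGP higher). Myh10, the heavy chain of non-muscle myosin IIB, lay between 98.3 and 111 CPM in Control and at 106 to 107 CPM with NaHPO4, and its log2FC of 0.03 had a 95% interval of -0.05 to 0.12. Myh11, the heavy chain of differentiated smooth muscle, had 3, 4 and 3 counts in Control, 3, 3 and 3 with BGP and 7, 0 and 4 with NaHPO4. Cnn1, the calponin that marks the same cell type, had 1, 0 and 0 counts in Control, 0 in all BGP libraries and 0, 0 and 2 with NaHPO4. No fold change is given for these genes, since 3 counts correspond to 0.105 to 0.140 CPM and both lie near that limit. These 2 smooth muscle markers were therefore at or near 0. Others were not, since Smtn lay at 187 to 211 CPM, Actg2 at 48.2 to 79.8 CPM, Tagln at 32.4 to 49.3 CPM, Lmod1 at 13.9 to 19.3 CPM and Des at 7.32 to 10.1 CPM over the 9 libraries.

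Proteins that lie along the thin filament or bind to it come next. Of 10 tested, 3 fell with NaHPO4, 1 rose with BGP and 3 were higher with BGP than with NaHPO4. The matching shares of all tested genes were 3.95%, 1.86% and 3.33%. Tagln, or SM22α, an early marker of the contractile state, had 46.7, 43.4 and 41.9 CPM in Control libraries, 49.3, 45.7 and 49 CPM after BGP and 32.4, 40.6 and 38.9 CPM after NaHPO4. NaHPO4 replicate 2 nearly reached the lowest Control library, but the groups do not overlap. It fell by 15.1% with NaHPO4 (log2FC = -0.24, SE 0.06, adjusted p = 0.013), a call that was lost without Control replicate 1 (adjusted p = 0.114) or NaHPO4 replicate 1 (0.156). BGP was higher than NaHPO4 (log2FC = 0.36, SE 0.06, adjusted p = 0.000132). Tagln shares exonic sequence on the opposite strand with Pcsk7.

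Cnn2, the calponin of non-muscle cells, had 914, 862 and 875 CPM in Control libraries, 877, 857 and 876 CPM after BGP and 756, 783 and 776 CPM after NaHPO4. The NaHPO4 libraries lie below all others, and it fell by 12.7% (log2FC = -0.20, SE 0.03, adjusted p = 2.92e-05). Per kilobase it was the second most abundant member, with 358 CPM per kb in Control. Tpm1, a tropomyosin that winds along the filament and sets access of myosin, had 1359, 1369.5 and 1322 CPM in Control libraries, 1296, 1292 and 1274 CPM after BGP and 1186, 1244 and 1184 CPM after NaHPO4. It fell with NaHPO4 (log2FC = -0.16, SE 0.03, adjusted p = 0.000296), while BGP libraries lay between the other groups and the treated groups did not pass the test (log2FC = 0.10, adjusted p = 0.0591). DESeq2 called that last difference (0.0137).

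Tpm4, another tropomyosin, behaved differently. It had 447, 439.8 and 444 CPM in Control libraries, 473, 478 and 485 CPM after BGP and 442, 452 and 437 CPM after NaHPO4. NaHPO4 libraries lay around Control and the BGP libraries above both, with a rise of 7.88% (log2FC = 0.11, SE 0.03, adjusted p = 0.0498). That call is at the threshold and was lost whichever Control or BGP library was left out (adjusted p up to 0.180). The difference of 0.11 between the treated groups (adjusted p = 0.0266) was lost whichever BGP library was left out and without NaHPO4 replicate 1 or 3 (up to 0.121). The other 6 tested genes of the role, Tpm2, Tpm3, Cald1, Cnn3, Tagln2 and Lmod1, passed in no comparison, and their log2FC with NaHPO4 ran from -0.10 for Lmod1 to 0.06 for Tagln2. Cnn1 was too low to test.

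Crosslinkers and adhesion proteins tie filaments to each other and to integrins. Of 8 tested, 3 fell with NaHPO4, 1 rose with BGP and 4 were higher with BGP than with NaHPO4. The matching shares of all tested genes were 3.95%, 1.86% and 3.33%. Flna, or filamin A, crosslinks filaments into networks and had 1109, 1154 and 1079 CPM in Control libraries, 1196, 1208 and 1239.8 CPM after BGP and 1023, 1025 and 1015 CPM after NaHPO4. The conditions do not overlap and stand in the order NaHPO4, Control, BGP. It rose with BGP (log2FC = 0.12, SE 0.03, adjusted p = 0.0196) and fell with NaHPO4 (log2FC = -0.13, SE 0.03, adjusted p = 0.00697). The rise was lost without Control replicate 1 or 3 or BGP replicate 2 or 3 (adjusted p up to 0.134), and the fall without Control replicate 2 (0.0637). The difference between the treated groups was 0.25 (adjusted p = 5.18e-07).

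Vcl, or vinculin, links talin to actin and had 487, 490.2 and 471 CPM in Control libraries, 484, 511 and 519 CPM after BGP and 448, 452 and 404 CPM after NaHPO4. NaHPO4 libraries were the lowest, and it fell (log2FC = -0.15, SE 0.04, adjusted p = 0.00646), except without NaHPO4 replicate 3 (0.0962). Its exons overlap those of Ap3m1 on the opposite strand. Zyx, or zyxin, gathers at filaments under tension and had 84.6, 76.9 and 84 CPM in Control libraries, 84.1, 80.5 and 88.2 CPM after BGP and 66.9, 70.7 and 72.6 CPM after NaHPO4. It fell by 14.4% with NaHPO4 (log2FC = -0.22, SE 0.05, adjusted p = 0.000954), with no overlap with Control. Both genes were higher with BGP than with NaHPO4, by 0.21 for Vcl (adjusted p = 0.000133) and 0.27 for Zyx (adjusted p = 0.000131).

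Actn1, an α-actinin that crosslinks filaments at adhesions, had 323, 305 and 315 CPM in Control libraries, 332, 334 and 335 CPM after BGP and 308, 307 and 291 CPM after NaHPO4. BGP libraries lay above all others and NaHPO4 libraries reached into the Control range, and only the treated groups differed (log2FC = 0.14, SE 0.03, adjusted p = 0.00514), except without NaHPO4 replicate 3 (0.0539). Actn4, Flnc, Lima1 and Tln1 passed edgeR's test in no comparison, while DESeq2 called Actn4 higher with BGP than with NaHPO4 (adjusted p = 0.0385). Tln1, or talin, which couples integrins to the filaments, averaged 694 ± 17.8 CPM in Control and 702 ± 22.9 CPM with NaHPO4 (SD, n = 3), a log2FC of 0.01 with a 95% interval of -3.42% to 5.68%.

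LIM domain proteins ride on filaments and adhesions, and some act as transcriptional cofactors. Csrp1 had 191, 181 and 187 CPM in Control libraries, 183, 186 and 178 CPM after BGP and 149.6, 154 and 156 CPM after NaHPO4. The NaHPO4 libraries lie clearly below the other 6, and it fell by 18% (log2FC = -0.29, SE 0.04, adjusted p = 2.93e-07) and differed by 0.25 between the treated groups (adjusted p = 5.2e-06). Fhl2 had 35.7, 30.3 and 37.1 CPM in Control libraries, 32.3, 33.9 and 34.5 CPM after BGP and 31.6, 26.1 and 28 CPM after NaHPO4. Control replicate 2 lies within the NaHPO4 range. Fhl2 fell with NaHPO4 (log2FC = -0.27, SE 0.07, adjusted p = 0.0107), a call lost without Control replicate 1 (0.0667), Control replicate 3 (0.112) or NaHPO4 replicate 2 (0.110). Its difference between the treated groups (log2FC = 0.23, SE 0.07, adjusted p = 0.0385) was lost whichever BGP library was left out and without NaHPO4 replicate 2 or 3 (up to 0.256).

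Fhl1 went the other way. It had 44.9, 43.9 and 44.2 CPM in Control libraries, 38.1, 41.7 and 42.4 CPM after BGP and 48.6, 48.5 and 52.2 CPM after NaHPO4. The 3 conditions do not overlap and stand in the order BGP, Control, NaHPO4. It rose with NaHPO4 (log2FC = 0.17, SE 0.05, adjusted p = 0.0386), a call lost whichever Control library was left out, without NaHPO4 replicate 2 or 3 (adjusted p up to 0.189), and in DESeq2 (0.0591). The lower level with BGP than with NaHPO4 (log2FC = -0.29, SE 0.05, adjusted p = 0.000273) passed in all 17 alternatives run. Pdlim7 passed in no comparison.

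Actin turnover genes did not pass edgeR's test in any comparison, and at an unadjusted p below 0.05 there was 1 of 4 with BGP, 0 with NaHPO4 and 1 between the treated groups, beside 13.4%, 19.9% and 16.9% of all tested genes. These are Cfl1, or cofilin, which severs filaments, Pfn1, or profilin, which feeds monomers to growing ends, Cap1, which recycles monomers, and Limk1, which inactivates cofilin. Their log2FC with NaHPO4 was -0.05, 0.01, 0.03 and -0.01, and the 95% intervals reached from -7.44% to 1.35% for Cfl1, -4.07% to 5.27% for Pfn1 and -2.47% to 6.69% for Cap1. Limk1, at a mean of 17.9 ± 0.711 CPM in Control (SD, n = 3), was measured less precisely, from -10.5% to 10.8%. Cfl1 was called higher with BGP than with NaHPO4 by DESeq2 (adjusted p = 0.0259), against 0.0601 in edgeR.

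The transcription factors are the regulators of many genes above. Srf (chr17:46857767-46867119, minus strand, GRCm39) had 55, 52.1 and 50.0 CPM in Control libraries, 51.8, 49.8 and 55.4 CPM after BGP and 43.9, 43.6 and 42.9 CPM after NaHPO4. All 3 NaHPO4 libraries lie below the other 6, and Srf fell by 16.9% (log2FC = -0.27, SE 0.05, adjusted p = 0.00041). With BGP its log2FC was 0.00 (adjusted p = 0.998), and the treated groups differed (log2FC = 0.27, SE 0.05, adjusted p = 0.000546). The mRNAs of its coactivators did not pass. Mrtfa had 57.1, 55 and 56.1 CPM in Control libraries, 54.8, 54.9 and 55.7 CPM after BGP and 52.1, 53.5 and 54.6 CPM after NaHPO4. Mrtfb had 53.4, 54.8 and 61.4 CPM in Control libraries, 57.9, 56.6 and 56.1 CPM after BGP and 59.3, 57.4 and 55.3 CPM after NaHPO4. The NaHPO4 libraries of Mrtfa lie just below Control, and those of Mrtfb lie within the Control range. With NaHPO4 the 95% interval was -10.7% to 1.44% for Mrtfa and -5.58% to 8.58% for Mrtfb, and mRNA says nothing of where these proteins were in the cell. The ratio of Srf to Mrtfb counts was 0.814 to 1.03 in Control, 0.879 to 0.986 with BGP and 0.740 to 0.775 with NaHPO4, without overlap between NaHPO4 and the others.

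Mef2a, a MADS-box factor related to SRF, had 306, 303 and 308 CPM in Control libraries, 344, 337 and 324 CPM after BGP and 287, 275 and 268 CPM after NaHPO4. The conditions do not overlap and stand in the order NaHPO4, Control, BGP, as for Flna. It rose with BGP (log2FC = 0.13, SE 0.03, adjusted p = 0.0276) and fell with NaHPO4 (log2FC = -0.14, SE 0.03, adjusted p = 0.00552). The rise was lost whichever Control library was left out and without BGP replicate 1 or 2 (adjusted p up to 0.187), whereas the difference of 0.27 between the treated groups (adjusted p = 5.83e-07) passed in all 17 alternatives. Its exons overlap those of Lysmd4 on the other strand.

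**Figure D3:**
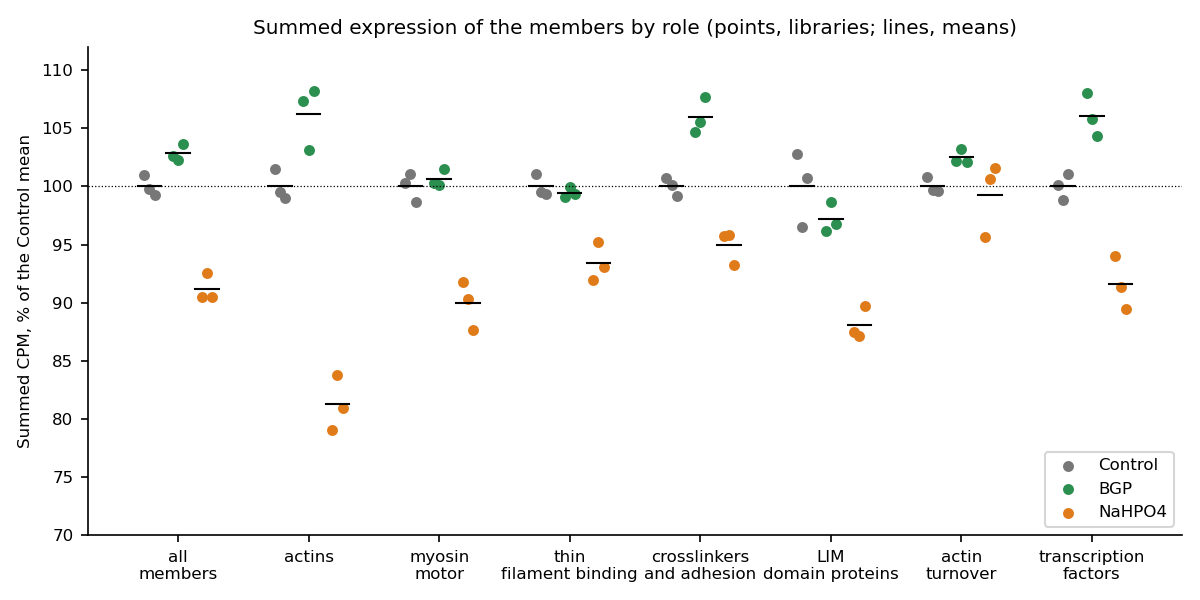
Summed CPM of the members of each role (x axis) in each library as a percentage of the Control mean (y axis, which starts at 70), with lines at the condition means (n = 3). The actins show the widest gap, with NaHPO4 at 81.3% and BGP at 106% of Control, and actin turnover genes show the narrowest, at 99.3% and 103%.

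Set side by side, the roles stood at different levels with NaHPO4. The mean of the summed CPM was 81.3% of Control for the actins, 88.1% for the LIM domain proteins, 89.9% for the myosin genes, 91.6% for the transcription factors, 93.4% for the thin filament proteins, 95.0% for crosslinkers and adhesion and 99.3% for actin turnover. All members together stood at 91.2% with NaHPO4 and 103% with BGP. These sums are led by their most abundant gene, so they say little of the rare members. Over the 22 members that did not pass with NaHPO4, no 95% interval reached below -17.5% or above 10.8%, and over the 34 that did not pass with BGP, none reached below -14.8% or above 19.2%.

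Neighbouring gene lists were set beside the members. Further known targets of SRF with MRTF gave a mixed picture. Of 14 listed, 11 could be tested, and Acta1, Actc1 and Tuft1 were too low. Ccn2, a matricellular protein also known as CTGF, had 41.5, 36.6 and 39.7 CPM in Control libraries, 76.4, 82.2 and 69.8 CPM after BGP and 63.3, 59.7 and 60.6 CPM after NaHPO4. It rose with both phosphates, with BGP above NaHPO4 and no overlap among the 3 conditions (log2FC = 0.96, adjusted p = 8.03e-16 with BGP, log2FC = 0.64, adjusted p = 7.4e-11 with NaHPO4). Its relative Ccn1, or CYR61, had 276, 251 and 253 CPM in Control libraries, 246, 257 and 263 CPM after BGP and 207, 202 and 205 CPM after NaHPO4. It fell with NaHPO4 (log2FC = -0.34, adjusted p = 1.7e-08) and did not pass with BGP. Tgfb1i1, the adhesion adaptor Hic-5, also fell with NaHPO4 (log2FC = -0.29, adjusted p = 2.09e-05). Ccn1, Ccn2, Tgfb1i1 and Pdlim5 were higher with BGP than with NaHPO4. For all tested genes, 1.86% rose with BGP, 3.43% rose and 3.95% fell with NaHPO4, and 3.33% were higher with BGP than NaHPO4. The median log2FC of the list with NaHPO4 was -0.27, against 0.00 over all tested genes. Ankrd1, Synpo2 and Myocd averaged under 1 CPM, and over the other 8 tested genes of the list the median was -0.12.

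SRF also works with ternary complex factors (TCF) at immediate early genes, downstream of MAPK signalling. Of 12 genes listed for this branch, which include the TCFs Elk1, Elk3 and Elk4, 6 rose with BGP and 0 fell, with a median log2FC of 0.28, where the members had 0.04. Egr3 (1.83), Egr2 (1.37) and Egr1 (0.89) had the largest log2FC, followed by Junb (0.42), Nr4a1 (0.40) and Ier2 (0.37). With NaHPO4, 4 fell, Egr1 (log2FC = -0.28, adjusted p = 2.7e-05), Nr4a1 (log2FC = -0.47, adjusted p = 0.000493), Fos (log2FC = -0.45, adjusted p = 0.0485) and Ier2 (log2FC = -0.21, adjusted p = 0.0135), and Egr3 rose (log2FC = 0.85, adjusted p = 2.84e-11). Egr1 had 102, 98.8 and 109 CPM in Control libraries, 205, 184 and 184 CPM after BGP and 88, 83.8 and 83.6 CPM after NaHPO4. Its BGP libraries stand far above the other 6, and its NaHPO4 libraries lie below Control. Between the treated groups 7 of 12 were higher with BGP and 0 lower. Of all tested genes, 1.86% rose and 0.665% fell with BGP, and 3.43% rose and 3.95% fell with NaHPO4. Between the treated groups, 3.33% of all tested genes were higher with BGP and 2.05% lower.

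**Figure D4:**
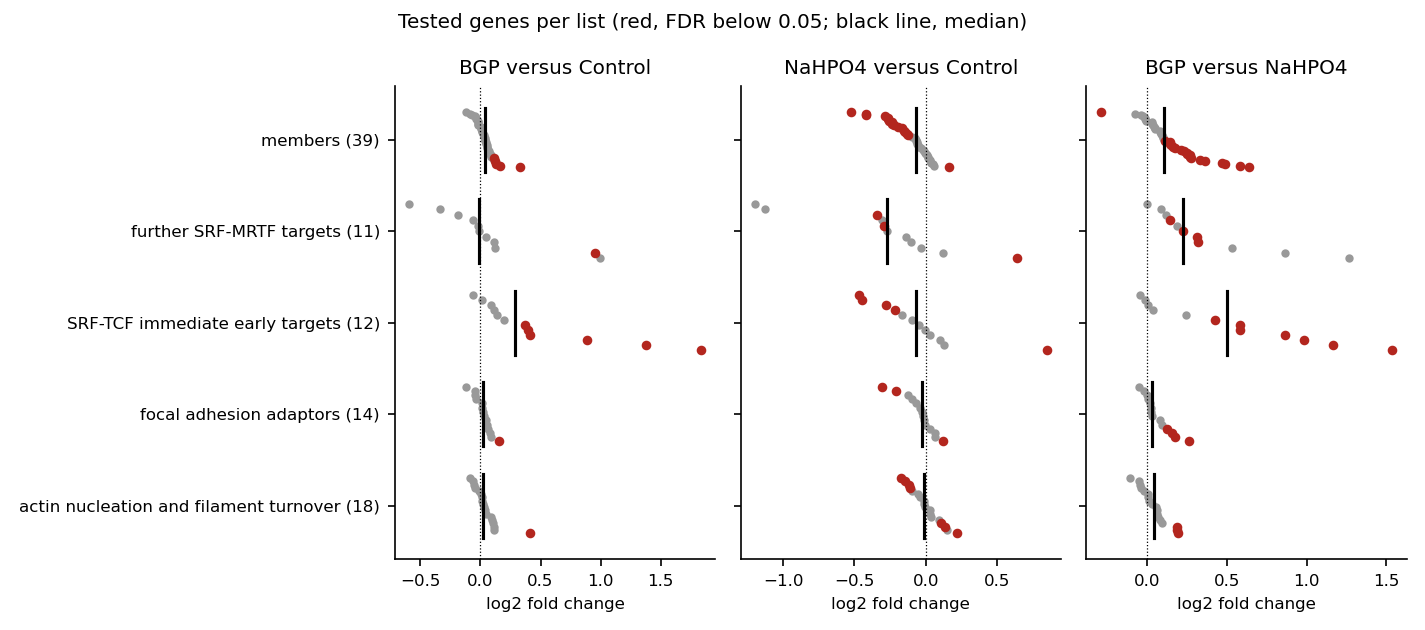
Fitted log2 fold change (x axis) of each tested gene of the members and of 4 related lists (rows, number tested in brackets), red where the adjusted p was below 0.05, with the list median as a black line and genes spread vertically in order of their value. With BGP (left) the immediate early list has its median at 0.28 and the members at 0.04, and with NaHPO4 (middle) the members lie mainly below 0.

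Of 14 tested focal adhesion adaptors, 2 fell with NaHPO4, the tensin Tns1 (log2FC = -0.30, adjusted p = 1.85e-08) and paxillin, Pxn (log2FC = -0.21, adjusted p = 0.00787), and 1 rose, Tns3 (log2FC = 0.13, adjusted p = 0.036), which also rose with BGP (log2FC = 0.15, adjusted p = 0.021). Itgb1 and Vasp, with Tns1 and Pxn, were higher with BGP than with NaHPO4, and Tes was too low to test. The 18 genes of actin nucleation and filament turnover included 4 that fell with NaHPO4, Wdr1 (log2FC = -0.17, adjusted p = 0.000511), Dstn (log2FC = -0.15, adjusted p = 0.0073) and Gsn (log2FC = -0.11, adjusted p = 0.0193), which sever or take apart filaments, and the coronin Coro1b (log2FC = -0.12, adjusted p = 0.0279). The 3 that rose were Coro1c (log2FC = 0.22, adjusted p = 0.000734) and the Arp2/3 subunits Arpc1b (log2FC = 0.14, adjusted p = 0.0137) and Arpc2 (log2FC = 0.11, adjusted p = 0.0347). Coro1c rose with BGP as well (log2FC = 0.41, adjusted p = 2.41e-08). The median log2FC with NaHPO4 was -0.02 for the adaptors and -0.01 for the nucleation and turnover genes. Of all tested genes, 3.95% fell and 3.43% rose with NaHPO4, and 1.86% rose with BGP. Between the treated groups, 3.33% of all tested genes were higher with BGP.

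Promoter windows of 300 bases, from 250 before to 50 after the start, were at hand for 37 of the 41 members, and Actb, Actg2, Tagln and Myh11 had none. The CArG box, which reads the same way on both strands, occurred in 10 of 48 member windows (20.8%) and in 1.63% of all 32851 windows. By gene, it occurred in 9 of 37 members (24.3%), Actg1, Myl9, Myl6, Cnn2, Vcl, Lima1, Fhl1, Fhl2 and Srf, and in 1.81% of 27025 genes. Since SRF targets were listed on purpose, the share describes the list. Of the 9 members with a box, 6 fell with NaHPO4 and 1, Fhl1, rose. Of 27 tested members with a window but no box, 8 fell, and of the 3 tested members without a window, 2 fell. The share that fell was 3.95% over all tested genes and 5.82% over those at least as abundant as the lowest tested member. Counted as without a box, Acta2 and Mef2a fell and Tpm3, Flnc and Mrtfa did not, though all hold a match with 1 other base. Whether a box and a fall go together was not tested. Myl6 and Lima1 hold a box and passed the test against Control in neither treatment. Windows of this length leave out more distant elements, and no match says only that these letters are absent from the window.

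Markers of cell state moved alongside. Of 12 osteoblast and osteocyte markers, 5 fell with NaHPO4, Col1a1 (-0.22), Col1a2 (-0.17), Alpl (-0.21), Bglap (-0.15) and Sost (-1.68), and 1 rose, Dmp1 (2.19). Sost had few reads, with 30, 31 and 36 counts in Control libraries and 14, 12 and 9 after NaHPO4 (SE 0.38). With BGP 2 rose, Dmp1 (2.86) and Phex (0.26). Of all tested genes, 3.95% fell and 3.43% rose with NaHPO4, and 1.86% rose with BGP. The summed level of the list was 109812 to 116872 CPM in Control libraries, 107234 to 113386 CPM after BGP and 97144 to 104006 CPM after NaHPO4. Col1a1 and Col1a2, at means of 43285 and 56380 CPM in Control, led these sums, so they say little of the other markers. What part the 12 markers had in the result for the members was not tested. Markers of other cell types were few. In the adipocyte list 5 of 6 genes averaged under 1 CPM and Cidec was at 0 in every library, and Fabp4 accounted for nearly all of the summed 9.97 to 16.2 CPM. The 5 skeletal muscle markers summed to less than 1 CPM in every library, with Myod1 and Myog at 0 throughout, the 4 macrophage markers to 1.52 to 2.48 CPM, and the 4 endothelial markers to at most 0.187 CPM, with Kdr at 0 throughout.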

How the data were processed

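The authors deposited whole-number read counts per gene for 9 libraries, from a stranded polyA kit, after FastQC and mapping in the AIR software to GRCm39 (Ensembl release 104). The aligner and the counting program are not given in the sources used here. The deposited TMM table is a signal in which the authors multiplied each library's counts by a single factor, from 1.01 to 1.32. It gave the gene names and otherwise served for an alternative only. Total counts were 21390839 to 28234404 per library, and 0 columns belonged to other samples. Each pair of libraries of a condition differed beyond counting noise (chi-square over its degrees of freedom 2.61 to 4.85).

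Conditions and replicate numbers were taken from the sample labels. Counts were filtered with filterByExpr (count minimum 10) and TMM-scaled. All 9 libraries were fitted with glmQLFit of edgeR 4.0.16, glmQLFTest gave the 3 comparisons, and p-values were adjusted by Benjamini and Hochberg's method over 13679 genes. The code was tested on simulated counts. Standard errors come from the quasi-likelihood F statistic, 95% intervals cover the spread between libraries, and lengths and positions come from GENCODE M39. Promoter windows come from a RefSeq table on GRCm38.p6. Alternatives were a replicate block, other scalings and filters, DESeq2 1.42.0, limma 3.58.1 on log2 of the TMM value plus 1, the 2 groups alone, and each library left out.

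Members and lists were chosen with earlier results of these data known. Values in every library are given for members called in any comparison and for Cnn1, Myh11, Mrtfa and Mrtfb. Up to 4 called genes of each related list are named by smallest p. Genes beyond these were named after their values were seen, where a count was 6 or less. The results of 1 related list are not reported here. R 4.3.3, Python 3.11.15, pandas 2.3.3 and matplotlib 3.10.9 were used.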

Additional observations from a re-analysis of the deposited data

How the results depend on the processing

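The log2FC of the 39 tested members in the 3 comparisons, recomputed under 17 alternatives, gave 1989 values. No called value changed sign, 54 calls were lost and 9 were gained. For BGP versus Control, 5 members were called, and 1 to 5 when a library was left out. All other alternatives gave 4 or 5. For NaHPO4 versus Control, 17 were called and the alternatives gave 14 to 17, with 14 without Control replicate 1. For BGP versus NaHPO4, 20 were called and the alternatives gave 17 to 22. Among all genes tested, 2.53%, 7.38% and 5.38% were called in these 3 comparisons. Over the alternatives those shares ran from 1.45% to 2.93%, 4.19% to 8.7% and 3.21% to 5.99%. Without Control replicate 1, where 14 members were called with NaHPO4, the share was 4.68%.

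Libraries with the same replicate number had a mean correlation of their deviations of 0.013, from -0.009 to 0.043. Between Control and NaHPO4 it was 0.030, 0.043 and 0.041 for the same number and -0.046 to 0.002 for other numbers. Pairs with a BGP library and the same number had -0.009 to 0.024. Values this small cannot show whether libraries of the same number were handled together. With the replicate number as a block, 4, 17 and 20 members were called, beside 2.57%, 7.28% and 5.48% of all tested genes. The single call lost was Tpm4 with BGP (adjusted p = 0.0708). Without a filter on low counts, Fhl1 with NaHPO4 was lost (0.051), and Actg2 with NaHPO4 (0.0371) and Tpm1 (0.0333) and Cfl1 (0.0443) between the treated groups were gained. The cause of these changes was not tested. Depth does not limit the abundant members but does limit Cnn1 and Myh11.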
